A study of Mus musculus with 9 samples.

Results

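Cells of the developing mouse knee that showed both a Sox9 and a Creb5 reporter (double-positive cells) were compared with cells of the same litters' knees that showed the Creb5 reporter alone (RFP-only cells). The comparison used 6 libraries, 3 per population, and covered the 17727 genes whose mean over these libraries was at least 10 normalized counts, of 54532 genes in the deposited table and 29451 with a read in at least 1 of the 6. All libraries came from embryos at stage E14.5 of the genotype Creb5 3XHA-P2A-tdTomato/+; Sox9 iresEGFP/+, so every population carried 1 modified allele of each gene, and the populations were told apart by the fluorescence of their cells. The tdTomato reporter at Creb5 gives red fluorescence (RFP), and the EGFP reporter behind an internal ribosome entry site at Sox9 gives green fluorescence (GFP). Knees were dissected under fluorescence, digested with collagenase and sorted by flow cytometry, and mRNA of each population was sequenced in bulk. Litters 1, 2 and 5 were isolated on separate dates, and each gave 1 library of every population, so the populations were compared within litters. The remaining population, with GFP alone (3 libraries), entered the estimate of the spread, and its values are shown beside those of the other two where they help to place a gene. Cells of several embryos of a litter may share a library, since the labels name the litter and not the embryo.

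Sox9 is the transcription factor that commits mesenchymal cells to cartilage. With Sox5 and Sox6 it switches on the genes of the cartilage matrix, above all type II collagen and aggrecan. Synovial joints form from the interzone, a band of flattened cells that appears across the cartilage template, loses part of its cartilage character and gives rise to articular cartilage, ligaments and synovium. Creb5 encodes a bZIP transcription factor of the CREB and ATF family that is known from the joint-forming region and from articular cartilage, where it acts on the lubricin gene Prg4. The contrast of double-positive with RFP-only cells asks how Creb5-reporter cells with Sox9 fluorescence differ from Creb5-reporter cells without it.

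Recovered read totals of the 6 libraries lay between 25199258 and 47079305. Libraries are written DP1, DP2 and DP5 for double-positive cells of litters 1, 2 and 5, and RFP1 to RFP5 and GFP1 to GFP5 likewise, and sets of 3 values follow the order of the litters. GFP5 stood apart from the other libraries. Ribosomal protein genes took 5.37% of its normalized counts and 2.11% to 2.69% of those of the other 8 libraries, and it widened the spread that all populations shared in the test. Counts of genes are therefore given with it and, where it matters, without it.

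Between double-positive and RFP-only cells 554 genes passed (limma, Benjamini-Hochberg adjusted p under 0.05), which is 3.13% of those tested. Of these, 328 (1.85%) were higher and 226 (1.27%) were lower in double-positive cells. The genes that rose included 34 of 35 tested cartilage matrix and chondrocyte genes, and those that fell included 11 of 25 skeletal muscle genes and 13 of 36 genes of loose connective tissue. All 554 had 1 sign in all 3 litters, and in 546 the values of the populations did not overlap. Among all tested genes, 1973 (11.1%) lay above and 2250 (12.7%) lay below without overlap, the median log2 fold change was -0.01, and 2529 (14.3%) had an unadjusted p under 0.05. Without GFP5 1988 genes passed, 910 higher and 1078 lower. Leaving out 1 of the 6 compared libraries left between 155 (without DP1) and 287 (without RFP2) calls. The genes nearest the limit on the mean were Mag, at 10.01 normalized counts just inside it, and Ifit3b, at 9.995 just outside.

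**Figure D1:**
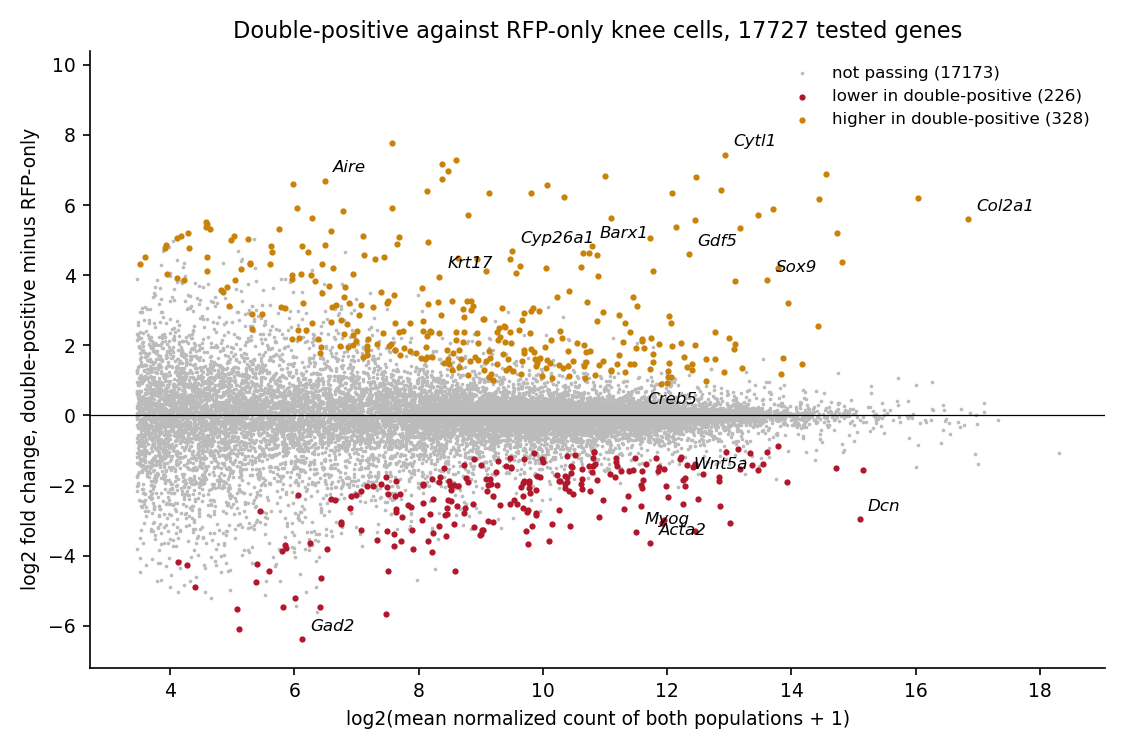
Log2 fold change of double-positive minus RFP-only cells (y axis) against the log2 mean normalized count of both populations plus 1 (x axis) for 17727 genes. Each point is a gene; orange points passed as higher (328), red points passed as lower (226), and grey points did not pass. Col2a1 lies at the far right of the higher genes, Gad2 at the bottom of the lower genes, and Creb5 on the zero line.

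The genes that carry the reporters served to check the labels, and their difference is part of the sort and no independent finding. Sox9 (ENSMUSG00000000567, chromosome 11, 112782224 to 112787760, plus strand, GRCm38) had 29767, 16565 and 24088 normalized counts in the double-positive libraries and 1873, 1091 and 1891 in the RFP-only libraries (log2 fold change 3.86 ± 0.19, adjusted p = 7.86e-05; SE, n = 3 libraries per population). Its lowest double-positive value lay above its highest RFP-only value, and RFP-only cells still held reads of Sox9. Creb5 (ENSMUSG00000053007, chromosome 6, 53287270 to 53700376, plus strand) had 3408, 2969 and 2754 normalized counts in the double-positive libraries and 3343, 2006 and 3531 in the RFP-only libraries. Those values overlapped, and the difference of 0.08 ± 0.26 did not pass (adjusted p = 0.973). In GFP-only cells Creb5 had 196, 138 and 274 normalized counts.

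The partners of Sox9 rose with it. Sox5 (ENSMUSG00000041540, chromosome 6, 143828425 to 144781977, minus strand), which encodes an HMG-box factor that binds beside Sox9 at cartilage enhancers, had 3487, 2005 and 4373 normalized counts in the double-positive libraries and 126, 102 and 154 in the RFP-only libraries (log2 fold change 4.63 ± 0.23, adjusted p = 7.86e-05). Sox6, its close relative, had 5474, 3093 and 4204 normalized counts in the double-positive libraries and 38.1, 41.9 and 344 in the RFP-only libraries (log2 fold change 5.64 ± 0.57, adjusted p = 0.00119). Wwp2, a ubiquitin ligase gene whose intron hosts the cartilage microRNA miR-140, had 29069, 17009.7 and 34590.4 normalized counts in the double-positive libraries and 1263, 1342 and 1599 in the RFP-only libraries (log2 fold change 4.21 ± 0.22, adjusted p = 7.86e-05). For these 3 genes every double-positive value lay far above every RFP-only value, and log2 ratios within litters were 4.77, 4.28 and 4.82 for Sox5, 7.13, 6.17 and 3.61 for Sox6 and 4.52, 3.66 and 4.43 for Wwp2. Among 16 tested Sox family genes 4 rose and 0 fell, beside 1.85% and 1.27% of all tested genes, and 12 missed the threshold. The 4 were Sox9 itself, whose difference the sort sets and which is counted here as a description, Sox5, Sox6 and Sox21. Sox21 had 66.3, 41.3 and 108 normalized counts in the double-positive libraries and 7.62, 0 and 0 in the RFP-only libraries (log2 fold change 5.04 ± 1.02, adjusted p = 0.0351). Without GFP5, 7 rose and 0 fell, and with 1 of the 6 compared libraries left out 3 to 4 rose and 0 fell. The calls of Sox5, Sox6 and Wwp2 held with any 1 library left out. The threshold was missed for Sox21 without any 1 of the 6 compared libraries or GFP1, with adjusted p of 0.0631 to 0.176. With no block for litter, Sox21 had an adjusted p of 0.0519.

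Double-positive cells held a full set of cartilage matrix RNAs that RFP-only cells held at a small part of the level. Among all tested genes 11.1% lay above RFP-only cells without overlap and 1.85% passed as higher. All 35 cartilage matrix and chondrocyte genes lay above RFP-only cells without overlap, 34 passed, and their median log2 fold change was 5.37. This list had been known to differ in these samples before it was used here, so its direction is a description. Col2a1 (ENSMUSG00000022483, chromosome 15, 97975602 to 98004695, minus strand), which encodes the fibrillar collagen of cartilage, had 152097, 143506 and 394725 normalized counts in the double-positive libraries and 2652, 5859 and 4837 in the RFP-only libraries (log2 fold change 5.60 ± 0.45, adjusted p = 0.000376). Its double-positive value was highest in litter 5, and the populations did not overlap. Acan, the gene of the large proteoglycan aggrecan, had 8624, 10058 and 25529 normalized counts in the double-positive libraries and 37.3, 292 and 302 in the RFP-only libraries (log2 fold change 6.44 ± 0.50, adjusted p = 0.000335). Hapln1, whose product links aggrecan to hyaluronan, had 9259, 10158 and 34682 normalized counts in the double-positive libraries and 249.8, 592 and 329 in the RFP-only libraries (log2 fold change 5.34 ± 0.42, adjusted p = 0.000347). Both genes were at least an order of magnitude higher in every double-positive library than in any RFP-only library. In these bulk libraries fewer cells of a type and less RNA per cell cannot be told apart.

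Of the 12 largest increases among well-expressed genes, 6 were on the cartilage list. Cytl1, a small secreted protein gene of cartilage, had 10180.4, 12529 and 23866 normalized counts in the double-positive libraries and 47.2, 199 and 60.2 in the RFP-only libraries (log2 fold change 7.43 ± 0.48, adjusted p = 0.000139). Matn1, the gene of the cartilage matrix protein matrilin-1, had 26048, 26106 and 90933 normalized counts in the double-positive libraries and 128, 963 and 308 in the RFP-only libraries (log2 fold change 6.87 ± 0.56, adjusted p = 0.000385). Chad, which encodes the collagen-binding protein chondroadherin, had 2969, 2064 and 7057 normalized counts in the double-positive libraries and 12.9, 112 and 18.2 in the RFP-only libraries (log2 fold change 6.82 ± 0.70, adjusted p = 0.00131). In these 3 genes RFP2 was the highest RFP-only library and still lay below every double-positive library. Matn4, a further matrilin gene, had a log2 fold change of 5.89 ± 0.33, adjusted p = 0.000103, and Cnmd, the gene of the angiogenesis inhibitor chondromodulin, of 5.21 ± 0.29, adjusted p = 0.000103. Susd5 (6.80 ± 0.59) and Scrg1 (6.58 ± 0.48) were of similar size. The 1 list member that missed the threshold was Slc26a2, the sulfate transporter gene, with 3145, 1781 and 6162 normalized counts in the double-positive libraries and 944, 921 and 406 in the RFP-only libraries (log2 fold change 2.20 ± 0.50, adjusted p = 0.053). It passed without DP2, GFP2 or GFP5 (adjusted p 0.0205 to 0.0489).

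The other 6 were in genes that the cartilage list does not hold. Foxa3, a forkhead transcription factor gene, had 672, 518 and 1111 normalized counts in the double-positive libraries and 8.38, 10.2 and 0 in the RFP-only libraries (log2 fold change 7.27 ± 0.78, adjusted p = 0.0017). Serpina3n, a secreted protease inhibitor gene, had 211, 429 and 1471 normalized counts in the double-positive libraries and 4.57, 11.3 and 0 in the RFP-only libraries (log2 fold change 6.97 ± 0.96, adjusted p = 0.00643). Neither had a read in RFP5, and both were highest in DP5. Aire, the autoimmune regulator known from the thymus, had 161, 74.8 and 295 normalized counts in the double-positive libraries and 2.29, 0 and 0 in the RFP-only libraries, which are 658 recovered reads against 3 (ratio after scaling for depth 174, exact 95% interval 59.4 to 848, counting error only). Ninj2, an adhesion molecule gene, had 458 reads against 1 (ratio 364, interval 65.0 to 14411, counting error only). Both intervals pool the reads of the litters. In the fit with litters the log2 fold change was 6.69 ± 0.66 for Aire (adjusted p = 0.00111) and 6.60 ± 0.64 for Ninj2 (adjusted p = 0.00109). Rlbp1, which encodes a retinaldehyde-binding protein, had 336, 356 and 959 normalized counts in the double-positive libraries and 6.86, 0 and 23.8 in the RFP-only libraries (log2 fold change 6.39 ± 0.69, adjusted p = 0.00173), and Meltf, the melanotransferrin gene, had 486, 639 and 2159 normalized counts in the double-positive libraries and 27.4, 0 and 43.4 in the RFP-only libraries (log2 fold change 6.34 ± 1.04, adjusted p = 0.0142). In GFP-only cells these genes were present too, for example Foxa3 at 3562, 3730.3 and 4057 and Aire at 129, 108 and 180.4 normalized counts. For the genes named here and in the preceding cartilage results, the calls of Col2a1, Acan, Hapln1, Cytl1, Matn1, Chad, Matn4, Cnmd, Susd5, Scrg1, Foxa3, Serpina3n, Aire, Ninj2 and Rlbp1 held with any 1 library left out. Calls ended for Meltf without DP1, DP2 or DP5, with adjusted p of 0.0531 to 0.0809.

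**Figure D2:**
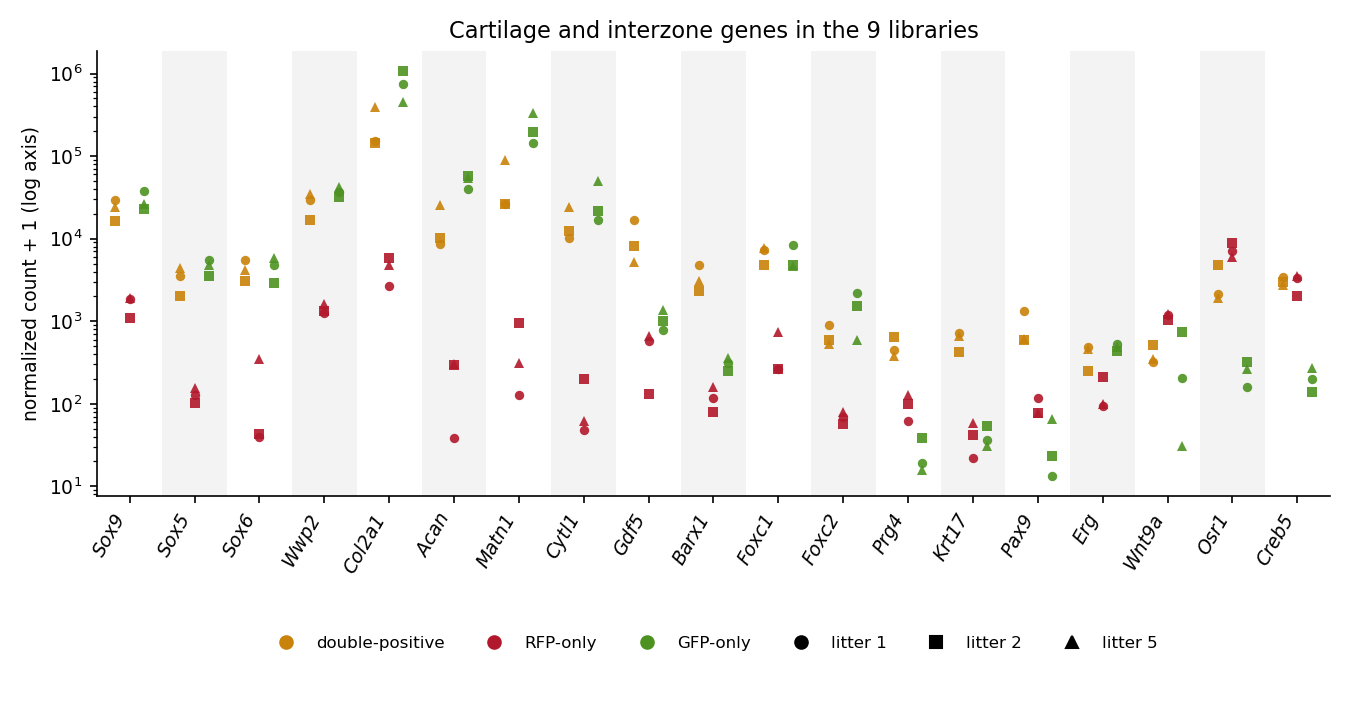
Normalized counts plus 1 on a log axis (y) for cartilage and interzone genes (x) in all 9 libraries; colour gives the population and shape the litter. From Sox9 to Cytl1 every double-positive point lies above every RFP-only point. Gdf5, Barx1, Prg4, Krt17 and Pax9 lie above both other populations, Osr1 is highest in RFP-only cells, and Creb5 is alike in both RFP-carrying populations.

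Promoter sequences are shown for 2 genes that rose and 2 that fell, to show the searched motifs in genes of either direction. They are the 250 bases before a start that RefSeq annotates on GRCm38.p6, written 5′ to 3′ on the gene's strand. For Sox5 and Kera that start lies inside the gene's GENCODE span, so their windows precede an internal transcript start. Capitals mark a SOX motif, searched as ACAATG or ACAAAG on both strands, in Sox5 (chr6:143947107-143947356, minus strand) and Kera (chr10:97606955-97607204, plus strand). They mark the E-box CAGCTG, the form that myogenic factors favour and a palindrome, in Matn1 (chr4:130944135-130944384, plus strand) and Des (chr1:75360042-75360291, plus strand). Sox5 and Matn1 were higher and Kera and Des lower in double-positive cells.
Sox5: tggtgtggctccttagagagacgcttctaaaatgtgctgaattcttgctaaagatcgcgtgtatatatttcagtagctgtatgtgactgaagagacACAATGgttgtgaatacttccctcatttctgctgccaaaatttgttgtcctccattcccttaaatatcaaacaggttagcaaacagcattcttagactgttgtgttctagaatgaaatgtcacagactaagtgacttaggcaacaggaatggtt
Matn1: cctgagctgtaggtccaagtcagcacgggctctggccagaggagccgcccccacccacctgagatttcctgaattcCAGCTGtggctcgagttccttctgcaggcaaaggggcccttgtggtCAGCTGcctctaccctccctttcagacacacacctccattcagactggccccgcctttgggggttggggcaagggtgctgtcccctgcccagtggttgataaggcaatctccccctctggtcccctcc
Kera: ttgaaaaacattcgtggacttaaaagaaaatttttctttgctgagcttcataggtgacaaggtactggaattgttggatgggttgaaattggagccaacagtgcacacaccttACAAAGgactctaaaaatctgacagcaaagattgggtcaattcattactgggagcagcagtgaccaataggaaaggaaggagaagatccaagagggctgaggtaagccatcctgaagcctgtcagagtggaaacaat
Des: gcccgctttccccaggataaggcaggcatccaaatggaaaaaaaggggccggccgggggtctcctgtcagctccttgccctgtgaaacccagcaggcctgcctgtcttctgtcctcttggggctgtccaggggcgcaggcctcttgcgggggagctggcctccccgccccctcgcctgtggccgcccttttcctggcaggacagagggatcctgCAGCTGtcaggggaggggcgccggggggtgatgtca
A RefSeq promoter was matched for 12043 of the 17727 tested genes. The SOX motif was in 17.1% of these windows, in 18.7% of 251 windows of genes that rose and in 13.5% of 155 windows of genes that fell. The E-box was in 12.2% of all windows, 16.3% of the higher genes and 21.9% of the lower genes. By list, with members counted whether or not they passed, it was in 6 of 18 windows of muscle genes and 6 of 29 windows of cartilage genes. The cAMP response element TGACGTCA, the full site of CREB and ATF dimers, was in 2.60% of all windows, 1.99% of the higher and 0.645% of the lower genes, and the AP-1 site TGANTCA in 4.25%, 5.98% and 1.94%. The cAMP response element is a palindrome, and no searched motif contains another. A match is a description of these letters and not a binding site, and no test was made of these shares.

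Genes that build and sulfate the sugar chains of cartilage proteoglycans rose in part. Of 42 glycosaminoglycan synthesis and sulfation genes 6 rose and 0 fell, beside 1.85% and 1.27% of all tested genes, and 36 missed the threshold (median 0.26). Extl1, a gene of the exostosin family of glycosyltransferases, had 2549, 1764 and 3326 normalized counts in the double-positive libraries and 18.3, 64.5 and 26.6 in the RFP-only libraries (log2 fold change 6.24 ± 0.45, adjusted p = 0.00024). Papss2, which makes the sulfate donor, had 18037, 9078 and 21970.1 normalized counts in the double-positive libraries and 920.2, 1159.6 and 1151 in the RFP-only libraries (log2 fold change 3.84 ± 0.31, adjusted p = 0.000385), and Chst11, a chondroitin sulfotransferase gene, had 1447, 1052 and 2754 normalized counts in the double-positive libraries and 133, 216 and 287 in the RFP-only libraries (log2 fold change 2.99 ± 0.29, adjusted p = 0.00106). None of these 3 genes overlapped between the populations. Without GFP5, 12 rose and 3 fell, and with 1 of the 6 compared libraries left out 5 to 6 rose and 0 to 1 fell. The calls of Extl1, Papss2 and Chst11 held with any 1 library left out.

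Collagen-modifying enzymes moved by smaller amounts. Of 35 collagen modification and secretory pathway genes 4 rose, 1 fell and 30 missed the threshold (median 0.04). Of all tested genes 1.85% rose and 1.27% fell. Plod2, a lysyl hydroxylase gene, had 7454, 7081 and 14001 normalized counts in the double-positive libraries and 2460.4, 2618 and 4164 in the RFP-only libraries (log2 fold change 1.59 ± 0.21, adjusted p = 0.00569), and the lysyl oxidase-like gene Loxl3 had a log2 fold change of 2.06 ± 0.29, adjusted p = 0.00698. The prolyl hydroxylase genes P4ha2 (1.25 ± 0.22) and P4ha3 (0.93 ± 0.18) rose by about 1 log2 unit, and Adamts2, the procollagen N-proteinase gene, fell (-2.08 ± 0.46, adjusted p = 0.0494). Leaving out GFP5, 11 rose and 4 fell, and with 1 of the 6 compared libraries left out 0 to 3 rose and 0 fell; with no litter block 4 rose and 0 fell. Calls lapsed for Plod2 without DP1 or RFP1, Loxl3 without DP1, P4ha2 without DP1, DP5, RFP1 or RFP5, and P4ha3 and Adamts2 without any 1 of the 6 compared libraries or GFP1, with adjusted p of 0.0511 to 0.26. Leaving out the litter block, Adamts2 had an adjusted p of 0.111.

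Hypoxia and glycolysis genes leaned upward. Of 29 such genes 24 had a positive log2 fold change and 4 rose, 0 fell and 25 missed the threshold (median 0.63). Among all tested genes 48.55% had a positive log2 fold change, 1.85% rose and 1.27% fell. Car9, a carbonic anhydrase gene and a marker of the hypoxia response, had 652, 562 and 1055 normalized counts in the double-positive libraries and 48.8, 13.6 and 47.6 in the RFP-only libraries (log2 fold change 4.48 ± 0.44, adjusted p = 0.00111). Its lowest double-positive value was more than 10 times its highest RFP-only value. Slc16a3, a lactate exporter gene, had a log2 fold change of 2.03 ± 0.27, adjusted p = 0.00498, Bnip3, a mitophagy gene, of 1.61 ± 0.23, adjusted p = 0.00759, and the glucose transporter gene Slc2a1 of 1.39 ± 0.22, adjusted p = 0.0121. Without GFP5, 14 rose and 1 fell, and with 1 of the 6 compared libraries left out 2 to 5 rose and 0 fell. The calls of Car9 and Slc16a3 held with any 1 library left out. Calls did not hold for Bnip3 without DP1 or RFP1, and Slc2a1 without DP1, DP5, RFP1 or RFP5, with adjusted p of 0.0535 to 0.082.

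Genes of maturing cartilage and bone that passed were higher in double-positive cells, as were 1.85% of all tested genes. Of 20 prehypertrophic, hypertrophic and osteoblast genes 3 rose, 0 fell and 17 missed the threshold (median 1.11). Ihh, the hedgehog ligand of prehypertrophic chondrocytes, had 121, 153 and 558 normalized counts in the double-positive libraries and 15.2, 45.3 and 21 in the RFP-only libraries (log2 fold change 3.10 ± 0.55, adjusted p = 0.0203), beside 16693, 12533 and 12237 in GFP-only cells. Panx3, a channel gene of hypertrophic chondrocytes, had 324, 405 and 1781 normalized counts in the double-positive libraries and 47.2, 147 and 36.4 in the RFP-only libraries (log2 fold change 3.26 ± 0.63, adjusted p = 0.0283), beside 28849, 38721 and 32215 in GFP-only cells. Dlx5, a homeobox gene of chondrocyte maturation and bone, had 648, 447 and 515 normalized counts in the double-positive libraries and 142, 209.5 and 175 in the RFP-only libraries (log2 fold change 1.61 ± 0.27, adjusted p = 0.0164). The DP5 values of Ihh and Panx3 exceeded those of DP1 and DP2 several times over. Without GFP5, 6 rose and 2 fell, and with 1 of the 6 compared libraries left out 0 to 3 rose and 0 fell. Significance was lost for Ihh without DP1, DP5, RFP1 or RFP5, Panx3 without DP1, RFP1 or RFP5, and Dlx5 without DP1, DP2, DP5, RFP1 or RFP5, with adjusted p of 0.0575 to 0.13.

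Joint interzone genes that passed were mostly higher in double-positive cells. Among 41 tested genes of the interzone and of articular progenitors 11 rose, 1 fell and 29 missed the threshold (median 0.47). Of all tested genes 1.85% rose and 1.27% fell. Gdf5 (ENSMUSG00000038259, chromosome 2, 155941023 to 155945367, minus strand), the BMP-family ligand whose expression defines the interzone, had 16771, 8104 and 5235 normalized counts in the double-positive libraries and 571, 130.2 and 668 in the RFP-only libraries (log2 fold change 4.60 ± 0.56, adjusted p = 0.00326). Its double-positive values differed about 3 times between DP1 and DP5 and all lay above the RFP-only values. GFP-only cells had 793, 995 and 1385. Barx1 (ENSMUSG00000021381, chromosome 13, 48662998 to 48666507, plus strand), a homeobox gene of the developing joint, had 4797, 2327 and 3108 normalized counts in the double-positive libraries and 117, 78.1 and 159.6 in the RFP-only libraries (log2 fold change 4.83 ± 0.29, adjusted p = 0.000106), with log2 ratios within litters of 5.35, 4.88 and 4.28. Prg4, which encodes lubricin, had 453, 635 and 379 normalized counts in the double-positive libraries and 60.9, 99.7 and 127 in the RFP-only libraries (log2 fold change 2.37 ± 0.44, adjusted p = 0.0239). For both genes the populations did not overlap.

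The forkhead genes Foxc1 and Foxc2, which act in early cartilage and joint formation, rose as well. Foxc1 had 7286, 4767 and 7767 normalized counts in the double-positive libraries and 261, 266 and 741 in the RFP-only libraries (log2 fold change 4.11 ± 0.38, adjusted p = 0.000778), and Foxc2 had 904, 585 and 529 normalized counts in the double-positive libraries and 68.6, 56.6 and 78.4 in the RFP-only libraries (log2 fold change 3.26 ± 0.40, adjusted p = 0.00335). Pthlh, the gene of parathyroid hormone-related protein, which keeps chondrocytes from maturing, had 1731, 1028 and 1698 normalized counts in the double-positive libraries and 255, 302 and 299.6 in the RFP-only libraries (log2 fold change 2.34 ± 0.29, adjusted p = 0.00342). These 3 genes did not overlap between the populations. Osr1, an odd-skipped zinc finger gene of connective tissue progenitors, went the other way, with 2109.9, 4805 and 1913 normalized counts in the double-positive libraries and 6995, 8821 and 5985 in the RFP-only libraries (log2 fold change -1.42 ± 0.27, adjusted p = 0.0286). Erg, an ETS factor gene of articular progenitors and of endothelium, had 489, 250.3 and 464 normalized counts in the double-positive libraries and 92.9, 208 and 98 in the RFP-only libraries and did not pass (1.63 ± 0.42, adjusted p = 0.0841). It passed without RFP2 (adjusted p = 0.0329) or GFP5 (0.0391). Wnt9a, an early interzone ligand gene, had 321, 511 and 349.9 normalized counts in the double-positive libraries and 1176, 1024 and 1222 in the RFP-only libraries, lower in every double-positive library. Its difference did not pass with all libraries (-1.56 ± 0.76, adjusted p = 0.422) and passed without GFP5 (adjusted p = 0.0247). Without GFP5, 15 rose and 5 fell, and with 1 of the 6 compared libraries left out 5 to 9 rose and 0 to 1 fell; with no litter block 10 rose and 0 fell. The calls of Gdf5, Barx1, Foxc1, Foxc2 and Pthlh held with any 1 library left out. In one-library-out fits, calls were lost for Prg4 without DP1, DP2, DP5, RFP1 or RFP2, and Osr1 without any 1 of the 6 compared libraries, with adjusted p of 0.056 to 0.184. Without litter as a block, Osr1 had an adjusted p of 0.0725.

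In the BMP pathway 3 ligand genes and the antagonist gene Nog rose. Of 34 BMP and GDF pathway genes 4 rose, Gdf5 among them, and 0 fell, beside 1.85% and 1.27% of all tested genes. The threshold was missed by 30, and the median of the list was 0.15. Bmp5, a ligand gene of the early skeleton, had 2534, 1467 and 3281 normalized counts in the double-positive libraries and 759, 412 and 532 in the RFP-only libraries (log2 fold change 2.06 ± 0.30, adjusted p = 0.00796). Gdf10, also known as Bmp3b, had 13064, 10973 and 17009.9 normalized counts in the double-positive libraries and 3144, 4086 and 3801 in the RFP-only libraries (log2 fold change 1.88 ± 0.29, adjusted p = 0.00997). Nog, whose product noggin holds BMP ligands away from their receptors in the joint region, had 1875, 623 and 1733 normalized counts in the double-positive libraries and 559, 353 and 540.4 in the RFP-only libraries (log2 fold change 1.41 ± 0.30, adjusted p = 0.044). The values of all 3 genes were separated between the populations, with DP2 the nearest to RFP-only cells for each. Without GFP5, 7 rose and 4 fell, and with 1 of the 6 compared libraries left out 1 to 4 rose and 0 fell. Calls were lost for Bmp5 without DP1, Gdf10 without DP1, DP5 or RFP1, and Nog without DP1, DP5, RFP1, RFP2, RFP5 or GFP1, with adjusted p of 0.0547 to 0.241. With no block for litter, Nog had an adjusted p of 0.115.

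Wnt pathway genes went both ways. Of 49 tested, 5 rose and 6 fell, beside 1.85% and 1.27% of all tested genes, and 38 missed the threshold (median -0.26). Values of 10 lay above and of 17 below RFP-only cells without overlap, beside 11.1% and 12.7% of all tested genes. Among the genes that rose were receptors and secreted antagonists. The receptor gene Fzd9 had 3023, 2125 and 4012 normalized counts in the double-positive libraries and 74.6, 101 and 219.8 in the RFP-only libraries (log2 fold change 4.63 ± 0.35, adjusted p = 0.000297). Frzb, a secreted Wnt antagonist gene of cartilage, had 3938, 3676 and 6015 normalized counts in the double-positive libraries and 1179, 635 and 843 in the RFP-only libraries (log2 fold change 2.37 ± 0.26, adjusted p = 0.00204). In both genes the lowest double-positive value was more than 3 times the highest RFP-only value. The antagonist gene Sfrp5 (2.40 ± 0.46, adjusted p = 0.0295), the Dickkopf family gene Dkk3 (2.01 ± 0.41, adjusted p = 0.0369) and the receptor gene Fzd6 (1.60 ± 0.32, adjusted p = 0.032) completed the 5.

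The Wnt genes that fell included ligands and agonists. Wnt5a, a ligand gene of noncanonical signaling, had 1629, 3407 and 2025 normalized counts in the double-positive libraries and 7718, 7233 and 8037 in the RFP-only libraries (log2 fold change -1.77 ± 0.29, adjusted p = 0.0137). Rspo1, which encodes an R-spondin that amplifies Wnt signals, had 44.2, 147 and 80.8 normalized counts in the double-positive libraries and 497, 1479 and 839 in the RFP-only libraries (log2 fold change -3.38 ± 0.48, adjusted p = 0.00698), and the ligand gene Wnt2 had 108, 589 and 164 normalized counts in the double-positive libraries and 1502, 1488 and 1330.0 in the RFP-only libraries (log2 fold change -2.71 ± 0.44, adjusted p = 0.0137). None of these 3 genes overlapped, and DP2 was the double-positive library nearest to RFP-only cells in each. Dkk1, a secreted antagonist gene, fell with them (-1.95 ± 0.33, adjusted p = 0.0169). Without GFP5, 10 rose and 14 fell, and with 1 of the 6 compared libraries left out 2 to 4 rose and 0 to 6 fell. Over both directions, the calls of Fzd9 and Frzb held with any 1 library left out. The threshold was missed for Sfrp5 without DP1, DP2, DP5, RFP1, RFP5 or GFP1, Dkk3 and Fzd6 without DP1, DP2, DP5, RFP1, RFP2 or GFP1, Wnt5a and Wnt2 without DP1, DP5, RFP1 or RFP5, and Rspo1 without DP2 or RFP1, with adjusted p of 0.0506 to 0.202. Calls ended for Dkk1 without DP1, DP2, RFP1, RFP2 or RFP5, with adjusted p of 0.0762 to 0.12. Leaving out the litter block, Rspo1 had an adjusted p of 0.0569.

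The FGF genes that rose were receptors, and those that fell were ligands. Of 25 FGF pathway genes 3 rose and 2 fell, beside 1.85% and 1.27% of all tested genes, and 20 missed the threshold (median -0.47). Fgfr3, the receptor gene of proliferating chondrocytes, had 3703, 2631 and 9113 normalized counts in the double-positive libraries and 525, 326 and 448 in the RFP-only libraries (log2 fold change 3.39 ± 0.45, adjusted p = 0.00561). Fgfrl1, which encodes a receptor-like protein without a kinase, had 12760.1, 8349 and 14035 normalized counts in the double-positive libraries and 2061, 2451 and 2075 in the RFP-only libraries (log2 fold change 2.38 ± 0.27, adjusted p = 0.00247), and Fgfr2 had a log2 fold change of 1.97 ± 0.31, adjusted p = 0.012. The ligand genes were Fgf7, a mesenchymal ligand, with 599, 1084 and 966 normalized counts in the double-positive libraries and 2925, 2249 and 2819.6 in the RFP-only libraries (log2 fold change -1.63 ± 0.31, adjusted p = 0.0278), and Fgf1, with 12.5, 0 and 0.748 normalized counts in the double-positive libraries and 68.6, 73.6 and 88.2 in the RFP-only libraries (log2 fold change -4.75 ± 1.04, adjusted p = 0.0466). DP2 held no read of Fgf1. Without GFP5, 6 rose and 7 fell, and with 1 of the 6 compared libraries left out 2 to 3 rose and 0 to 1 fell. The calls of Fgfr3 and Fgfrl1 held with any 1 library left out. Calls lapsed for Fgfr2 without DP1, DP5 or RFP1, Fgf7 without any 1 of the 6 compared libraries, and Fgf1 without DP2, DP5, RFP1, RFP2 or RFP5, with adjusted p of 0.0502 to 0.176.

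Retinoic acid genes were called in both directions. Of 18 tested, 4 rose and 3 fell, beside 1.85% and 1.27% of all tested genes, and 11 missed the threshold (median -0.55). Cyp26a1, which degrades retinoic acid, had 893, 1461 and 1797 normalized counts in the double-positive libraries and 70.8, 18.1 and 99.4 in the RFP-only libraries (log2 fold change 4.69 ± 0.47, adjusted p = 0.00119), and Cyp26b1, its relative, had 732, 483 and 922 normalized counts in the double-positive libraries and 177, 97.4 and 130.2 in the RFP-only libraries (log2 fold change 2.39 ± 0.34, adjusted p = 0.00774). Both degrading enzymes were higher in all 3 litters without overlap. Dhrs3, which turns retinaldehyde back to retinol, had a log2 fold change of 1.60 ± 0.29, adjusted p = 0.0224, and the receptor gene Rarg of 1.76 ± 0.39, adjusted p = 0.0471. Stra6, the retinol uptake receptor gene, had 143, 335 and 230.3 normalized counts in the double-positive libraries and 2004, 1781 and 1187 in the RFP-only libraries (log2 fold change -2.86 ± 0.47, adjusted p = 0.0147), Aldh1a3, a retinoic acid synthesis enzyme gene, had 105, 426 and 259 normalized counts in the double-positive libraries and 770.1, 826 and 1061 in the RFP-only libraries (log2 fold change -1.95 ± 0.35, adjusted p = 0.0222), and the binding protein gene Crabp1 fell by 1.40 on the log2 scale (adjusted p = 0.0121). Without GFP5, 4 rose and 9 fell, and with 1 of the 6 compared libraries left out 2 rose and 0 to 2 fell; with no litter block 4 rose and 1 fell. The call of Cyp26a1 held with any 1 library left out. Calls did not hold for Cyp26b1 without RFP1, Dhrs3 without DP1, DP2, DP5, RFP2 or RFP5, Rarg without any 1 of the 6 compared libraries or GFP1, and Stra6 without DP1, DP2, RFP1, RFP2 or RFP5, with adjusted p of 0.0513 to 0.231. Significance was lost for Aldh1a3 without DP1, DP5, RFP1 or RFP5, and Crabp1 without DP2, DP5, RFP1, RFP2 or RFP5, with adjusted p of 0.0557 to 0.142. Without litter as a block, Aldh1a3 had an adjusted p of 0.0606 and Crabp1 had an adjusted p of 0.0554.

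Hedgehog, TGF-beta and Notch genes gave 7 calls in all, 2 of 15, 3 of 26 and 2 of 22, where 3.13% of all tested genes passed. Of 15 hedgehog pathway genes 2 rose, 0 fell and 13 missed the threshold (median 0.07), namely Ihh and Ptch1, the receptor gene that hedgehog signals induce, with 2219, 1392 and 2298 normalized counts in the double-positive libraries and 913, 525 and 788 in the RFP-only libraries (log2 fold change 1.41 ± 0.28, adjusted p = 0.0331). The co-receptor gene Boc had 7784, 6006 and 8173 normalized counts in the double-positive libraries and 4379, 3440.3 and 4932 in the RFP-only libraries and did not pass (0.79 ± 0.42, adjusted p = 0.475), though it passed without GFP5 (adjusted p = 0.00164). Smo (0.32 ± 0.38, adjusted p = 0.858) and Gas1 (0.05 ± 0.20, adjusted p = 0.982) did not pass. Without GFP5, 4 rose and 0 fell, and with 1 of the 6 compared libraries left out 0 to 1 rose and 0 fell. In one-library-out fits, calls were lost for Ptch1 without any 1 of the 6 compared libraries or GFP1, with adjusted p of 0.0595 to 0.158.

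Of 26 TGF-beta and activin genes 2 rose, 1 fell and 23 missed the threshold (median -0.03). Tgfbi, a secreted matrix protein gene induced by TGF-beta, had 35324, 22872 and 23512 normalized counts in the double-positive libraries and 10539, 8154 and 10361 in the RFP-only libraries (log2 fold change 1.47 ± 0.25, adjusted p = 0.0151), and the activin-binding follistatin-like gene Fstl3 had a log2 fold change of 1.10 ± 0.24, adjusted p = 0.0495. The co-receptor gene Tgfbr3 had 501, 1289 and 773 normalized counts in the double-positive libraries and 2649, 2497 and 3525 in the RFP-only libraries (log2 fold change -1.85 ± 0.32, adjusted p = 0.0174). With GFP5 left out, 3 rose and 4 fell, and with 1 of the 6 compared libraries left out 0 to 1 rose and 0 to 1 fell. Of 22 Notch pathway genes 0 rose, 2 fell and 20 missed the threshold (median -0.92). The fallen genes were the Notch target genes Heyl, with 149, 264 and 249.7 normalized counts in the double-positive libraries and 850.1, 1712 and 1680.0 in the RFP-only libraries (log2 fold change -2.65 ± 0.30, adjusted p = 0.00245), and Hey2 (-2.41 ± 0.54, adjusted p = 0.0488). Hes1, a further target, had 1439, 889.5 and 3153 normalized counts in the double-positive libraries and 2368, 2474 and 3891 in the RFP-only libraries and did not pass (-0.83 ± 0.33, adjusted p = 0.28), nor did Rbpj (-0.42 ± 0.29) or Dlk1 (-0.34 ± 0.21). Without GFP5, 0 rose and 5 fell, and with 1 of the 6 compared libraries left out 0 rose and 1 fell. The call of Heyl held with any 1 library left out. Calls were lost for Tgfbi without DP1, DP2, RFP1, RFP2 or RFP5, Fstl3 without any 1 of the 6 compared libraries or GFP1 or GFP2, Tgfbr3 without DP1, DP5, RFP1 or RFP5, and Hey2 without any 1 of the 6 compared libraries, with adjusted p of 0.0637 to 0.245.

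**Figure D3:**
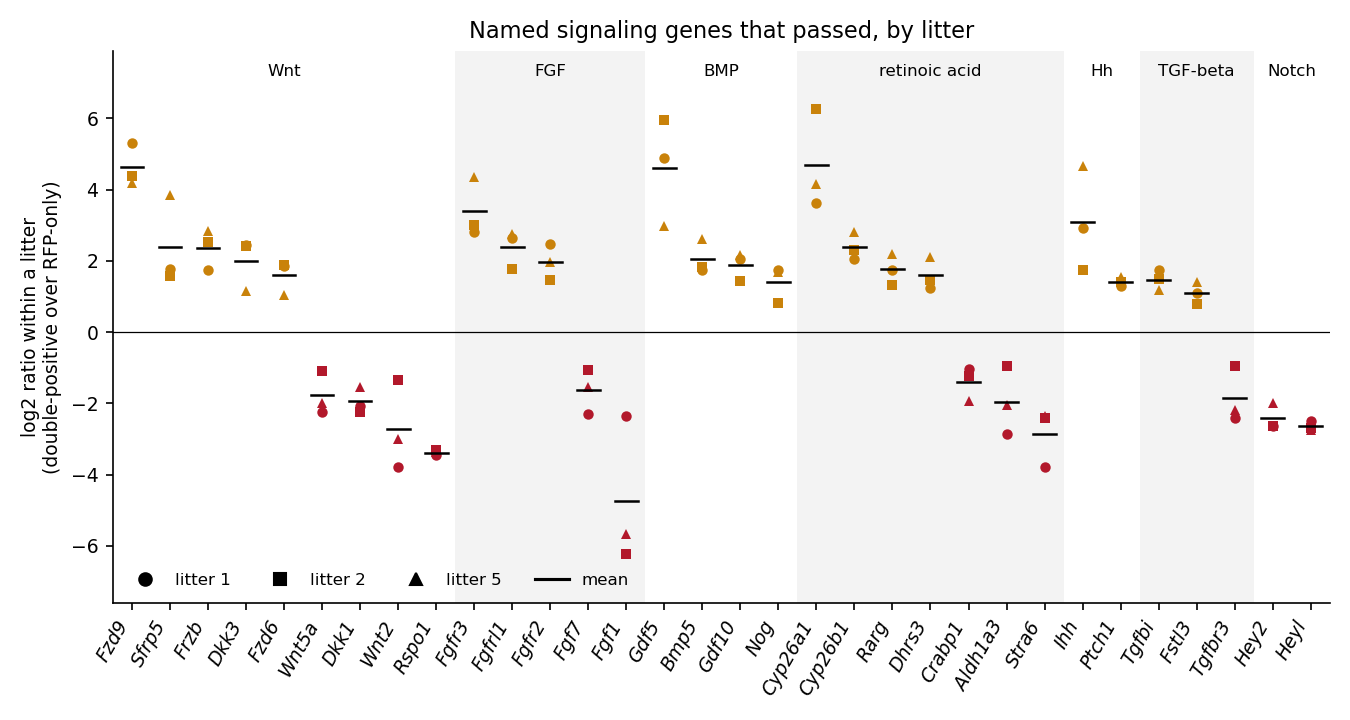
Log2 ratio of double-positive over RFP-only cells within each litter (y axis) for named signaling genes that passed (x axis), grouped by pathway (Hh, hedgehog). Points are litters by shape and black bars the mean of 3 litters; orange genes were higher and red genes lower. All 3 litters lie on 1 side of zero for each gene, with the widest spread between litters for Fgf1 and Gdf5.

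More genes of tendon and ligament were lower than higher in double-positive cells. Among 28 genes of tendon and ligament 2 rose and 6 fell, beside 1.85% and 1.27% of all tested genes, and 20 missed the threshold (median -0.28). Dcn (ENSMUSG00000019929, chromosome 10, 97479609 to 97518143, plus strand), the gene of the collagen-binding proteoglycan decorin, had 2315, 20779 and 8788 normalized counts in the double-positive libraries and 43784, 75819.8 and 59001 in the RFP-only libraries (log2 fold change -2.95 ± 0.44, adjusted p = 0.00873). Kera, which encodes the related proteoglycan keratocan, had 361, 1907 and 879 normalized counts in the double-positive libraries and 5789.9, 8258 and 6438 in the RFP-only libraries (log2 fold change -2.99 ± 0.34, adjusted p = 0.00249), and Chodl, the gene of the lectin-like membrane protein chondrolectin, had 476, 1244 and 891 normalized counts in the double-positive libraries and 8334, 6649 and 5543 in the RFP-only libraries (log2 fold change -3.06 ± 0.36, adjusted p = 0.00302). In each of these genes DP1 was lowest and DP2 the double-positive library nearest to RFP-only cells, and no gene overlapped. Thbs4, a matrix gene of tendon and muscle attachment, fell too (-1.42 ± 0.25, adjusted p = 0.0203). The 2 list members that rose were Fmod, a proteoglycan gene also on the cartilage list, with 9890.2, 12199 and 17989 normalized counts in the double-positive libraries and 1881, 3053 and 3872 in the RFP-only libraries (log2 fold change 2.20 ± 0.26, adjusted p = 0.0032), and Fibin (1.18 ± 0.19, adjusted p = 0.0143). Without GFP5, 3 rose and 11 fell, and with 1 of the 6 compared libraries left out 1 to 2 rose and 2 to 5 fell; with no litter block 2 rose and 3 fell. The calls of Kera, Chodl and Fmod held with any 1 library left out. The threshold was missed for Dcn without DP1, and Thbs4 and Fibin without DP1, DP2, DP5, RFP1 or RFP5, with adjusted p of 0.0667 to 0.152. With no block for litter, Dcn had an adjusted p of 0.0597.

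Loose connective tissue, fascia and perichondrium genes that passed were lower in double-positive cells with 1 exception. Of 36 such genes 1 rose and 13 fell, beside 1.85% and 1.27% of all tested genes, and 22 missed the threshold (median -0.97). Lum, the gene of the proteoglycan lumican, had 8561, 19154 and 15463 normalized counts in the double-positive libraries and 34768, 48383 and 34567 in the RFP-only libraries (log2 fold change -1.51 ± 0.22, adjusted p = 0.00807). Twist1, a bHLH factor gene of undifferentiated mesenchyme, had 1417, 2221 and 1576 normalized counts in the double-positive libraries and 3929.8, 4568 and 3455 in the RFP-only libraries (log2 fold change -1.21 ± 0.22, adjusted p = 0.0224), and its relative Twist2 had 842, 1045 and 565 normalized counts in the double-positive libraries and 1994, 3047 and 1981 in the RFP-only libraries (log2 fold change -1.53 ± 0.27, adjusted p = 0.019). The populations did not overlap in any of the 3. Col15a1, a basement membrane collagen gene, was the 1 member that rose, with 551, 496 and 668 normalized counts in the double-positive libraries and 50.3, 116 and 79.8 in the RFP-only libraries (log2 fold change 2.86 ± 0.34, adjusted p = 0.00295). Without GFP5, 2 rose and 18 fell, and with 1 of the 6 compared libraries left out 1 rose and 0 to 5 fell; with no litter block 1 rose and 5 fell. The call of Col15a1 held with any 1 library left out. Calls ended for Lum without DP1 or RFP1, and Twist1 and Twist2 without any 1 of the 6 compared libraries, with adjusted p of 0.0595 to 0.169.

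Most collagens outside cartilage that passed were lower too. Of 37 such genes 1 rose and 5 fell, beside 1.85% and 1.27% of all tested genes, and 31 missed the threshold (median -0.99). Col15a1 was the 1 that rose. Col23a1, a transmembrane collagen gene, had 739.8, 1309.8 and 654 normalized counts in the double-positive libraries and 5245, 5462 and 4914 in the RFP-only libraries (log2 fold change -2.60 ± 0.43, adjusted p = 0.0141). Col7a1, the anchoring fibril collagen gene, had 21.1, 233 and 197 normalized counts in the double-positive libraries and 402, 1694 and 777 in the RFP-only libraries (log2 fold change -3.01 ± 0.62, adjusted p = 0.0382). Both were separated between the populations, with the lowest value in litter 5 for Col23a1 and in litter 1 for Col7a1. Col20a1 (-3.09 ± 0.63, adjusted p = 0.0371), the microfibrillar collagen gene Col6a3 (-1.05 ± 0.21, adjusted p = 0.032) and Col14a1 (-1.38 ± 0.30, adjusted p = 0.0471), a fibril-associated collagen gene, completed the 5. The populations overlapped in Col6a3, with 13330.7 normalized counts in DP2 and 12300.5 in RFP1. They overlapped in Col14a1 too, with 5239 in DP2 and 4490 in RFP1. Without GFP5, 3 rose and 18 fell, and with 1 of the 6 compared libraries left out 1 rose and 0 to 2 fell; with no litter block 1 rose and 2 fell. Calls lapsed for Col23a1 without DP1, DP2, RFP1 or RFP5, Col7a1 without DP1, DP2, RFP1, RFP2 or RFP5, Col20a1 without any 1 of the 6 compared libraries, and Col6a3 without any 1 of the 6 compared libraries or GFP1, with adjusted p of 0.0571 to 0.221. Calls did not hold for Col14a1 without DP1, DP2, DP5, RFP1, RFP5 or GFP1, with adjusted p of 0.0755 to 0.262. Leaving out the litter block, Col7a1 had an adjusted p of 0.153, Col6a3 had an adjusted p of 0.213 and Col14a1 had an adjusted p of 0.295.

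Skeletal muscle RNA was higher in RFP-only than in double-positive cells. Of 25 tested muscle genes 0 rose, 11 fell and 14 missed the threshold, 19 lay below RFP-only cells without overlap, and the median log2 fold change was -3.16. Among all tested genes 1.27% fell and 12.7% lay below without overlap. Myog (ENSMUSG00000026459, chromosome 1, 134289989 to 134292548, plus strand), the myogenin gene of differentiating myoblasts, had 214, 529 and 663 normalized counts in the double-positive libraries and 1470.2, 7813 and 6639 in the RFP-only libraries (log2 fold change -3.33 ± 0.35, adjusted p = 0.00158). Actc1, the cardiac actin that embryonic muscle also makes, had 415, 1253 and 1344 normalized counts in the double-positive libraries and 3648, 15582 and 11448 in the RFP-only libraries (log2 fold change -3.29 ± 0.24, adjusted p = 0.000265), and Tnnt1, a slow muscle troponin gene, had 79.7, 252 and 156 normalized counts in the double-positive libraries and 912, 2039.5 and 1621 in the RFP-only libraries (log2 fold change -3.29 ± 0.32, adjusted p = 0.00106). In each gene RFP1 was the lowest RFP-only library and still exceeded every double-positive library. Des, the gene of the muscle intermediate filament desmin, fell by 2.71 on the log2 scale (adjusted p = 0.00873), Myod1, the master regulator gene of myogenesis, by 3.68 (adjusted p = 0.00917), and the muscle cadherin gene Cdh15 by 3.59 (adjusted p = 0.00118).

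The largest decreases among well-expressed genes included further muscle genes. Chrng, the fetal subunit gene of the acetylcholine receptor, had 0, 3.898 and 38.1 normalized counts in the double-positive libraries and 123, 508 and 386 in the RFP-only libraries (log2 fold change -5.65 ± 0.86, adjusted p = 0.01). Musk, the receptor kinase gene that organizes the neuromuscular synapse, had 0, 18.7 and 8.22 normalized counts in the double-positive libraries and 61.7, 215 and 209 in the RFP-only libraries (log2 fold change -4.64 ± 0.72, adjusted p = 0.0114), and Itga7, a laminin receptor gene of muscle fibres, had 0, 38.2 and 47.1 normalized counts in the double-positive libraries and 92.9, 401 and 501 in the RFP-only libraries (log2 fold change -4.43 ± 0.88, adjusted p = 0.0324). DP1 held no read of these 3 genes. Myf5, an early myogenic regulator, had a log2 fold change of -4.43 ± 0.79, adjusted p = 0.0203, Neb, the gene of the giant thin-filament protein nebulin, of -3.89 ± 0.66, adjusted p = 0.0168, and Lbx1, a homeobox gene of migrating muscle precursors, of -3.82 ± 0.79, adjusted p = 0.0376. Without GFP5, 0 rose and 15 fell, and with 1 of the 6 compared libraries left out 0 rose and 6 to 9 fell. Across both sets of muscle genes, the calls of Myog, Actc1, Tnnt1 and Cdh15 held with any 1 library left out. Significance was lost for Des without DP1, DP2 or RFP2, Myod1 without DP1 or RFP2, Chrng without DP1, DP2, RFP1 or RFP2, and Musk without DP1, DP5, RFP1, RFP2 or RFP5, with adjusted p of 0.0507 to 0.0909. In one-library-out fits, calls were lost for Itga7 and Lbx1 without any 1 of the 6 compared libraries, Myf5 without DP2, DP5, RFP1, RFP2 or RFP5, and Neb without DP1, DP2, DP5, RFP1 or RFP2, with adjusted p of 0.0515 to 0.177. Without litter as a block, Musk had an adjusted p of 0.0532 and Itga7 had an adjusted p of 0.0978.

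Other large decreases were in genes of varied known roles. Gad2, which encodes an enzyme of GABA synthesis, had 2 recovered reads over the double-positive libraries and 365 over the RFP-only libraries (ratio of RFP-only to double-positive after scaling 229.6, exact 95% interval 63.1 to 1903, counting error only; adjusted p = 0.00912). Xdh, the xanthine dehydrogenase gene, had 3.84, 2.34 and 2.24 normalized counts in the double-positive libraries and 154, 159.7 and 181 in the RFP-only libraries (log2 fold change -5.46 ± 0.98, adjusted p = 0.0203). Cdh7, a cadherin gene, had 2.88, 0.780 and 0.748 normalized counts in the double-positive libraries and 82.3, 181 and 65.8 in the RFP-only libraries (log2 fold change -5.45 ± 0.95, adjusted p = 0.018). These 3 genes were near 0 in every double-positive library and above 50 normalized counts in every RFP-only library. Alb, the albumin gene, had 0, 8.58 and 2.24 normalized counts in the double-positive libraries and 69.3, 168 and 133 in the RFP-only libraries (log2 fold change -5.21 ± 0.95, adjusted p = 0.0224), and the G protein-coupled receptor genes Gpr37 (-3.88 ± 0.76, adjusted p = 0.031) and Gpr83 (-3.82 ± 0.80, adjusted p = 0.0392) fell as well. The summed muscle list was 11878, 43232 and 37003 normalized counts in RFP-only cells and 1879, 4442 and 4880.2 in double-positive cells, and the part of muscle cells in the other decreases was not tested. Calls were lost for Gad2 without RFP1, RFP2 or RFP5, Xdh and Cdh7 without any 1 of the 6 compared libraries, Alb and Gpr37 without DP1, DP5, RFP1, RFP2 or RFP5, and Gpr83 without DP1, DP2, DP5, RFP1, RFP2 or GFP1, with adjusted p of 0.0513 to 0.186. With no block for litter, Gpr37 had an adjusted p of 0.0923 and Gpr83 had an adjusted p of 0.209.

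Markers of further cell types were read in the same way. None of 17 endothelial genes passed (median -0.48), with Pecam1, an endothelial adhesion molecule gene, at 117, 713 and 447 normalized counts in the double-positive libraries and 602, 488 and 346 in the RFP-only libraries, Kdr, the VEGF receptor gene, at 85.5, 944 and 559 normalized counts in the double-positive libraries and 860.0, 1111 and 1393 in the RFP-only libraries, and Cdh5, the endothelial cadherin gene, at 96.1, 239 and 179 normalized counts in the double-positive libraries and 239, 225 and 178 in the RFP-only libraries. Pecam1, Kdr and Cdh5 overlapped between the populations, and each was lowest in DP1. Without GFP5 Tek, the angiopoietin receptor gene, passed as lower (-2.01 ± 0.73 with all libraries, adjusted p = 0.222, and 0.0179 without it). For the list without GFP5, 1 rose and 2 fell, and with 1 of the 6 compared libraries left out 0 to 1 rose and 0 fell.

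None of 21 blood and immune cell genes passed although all 21 had a positive log2 fold change (median 1.45). The sign was positive in 48.55% of all tested genes. Csf1r, a receptor gene of macrophages, had 368, 949.6 and 2514 normalized counts in the double-positive libraries and 798, 277 and 339 in the RFP-only libraries (log2 fold change 1.18 ± 0.86, adjusted p = 0.674). The list summed to 5979.9, 13010.2 and 34209 in double-positive and 8376, 4564 and 2801 in RFP-only cells, so litter 1 went against litters 2 and 5, and DP5 was the highest library. The leukocyte gene Ptprc had 67.3, 49.1 and 277 normalized counts in the double-positive libraries and 109, 16.99 and 23.8 in the RFP-only libraries and Cx3cr1, a chemokine receptor gene of macrophages, 36.5, 164 and 651 normalized counts in the double-positive libraries and 262, 178 and 33.6 in the RFP-only libraries. F13a1, a macrophage marker, passed only without RFP1 (log2 fold change 2.80 ± 0.93 with all libraries, adjusted p = 0.174, and 0.04996 without it), and C1qb (1.45 ± 1.06) and Laptm5 (1.25 ± 0.50) did not pass. Without GFP5, 0 rose and 0 fell, and with 1 of the 6 compared libraries left out 0 to 2 rose and 0 fell.

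Among 12 tested red cell genes 0 rose and 2 fell, beside 1.85% and 1.27% of all tested genes, and 10 missed the threshold (median -1.09). Both that fell were embryonic globins of primitive red cells, Hbb-y with 1786, 2157 and 948 normalized counts in the double-positive libraries and 12662, 25189 and 6714 in the RFP-only libraries (log2 fold change -3.06 ± 0.49, adjusted p = 0.0132) and Hba-x with 228, 268 and 155 normalized counts in the double-positive libraries and 1603, 3529.8 and 1050.0 in the RFP-only libraries (log2 fold change -3.09 ± 0.51, adjusted p = 0.0138). Adult globin genes did not pass, with Hba-a1 at -1.14 ± 0.49, Hba-a2 at -1.04 ± 0.48, Hbb-bs at -0.61 ± 0.45 and Hbb-bt at -0.67 ± 0.46. Hba-a1 passed without GFP5 (adjusted p = 0.0429). The near-identical adult genes may share reads. Embryonic globins made up 20.8%, 3.17% and 3.38% of the globin counts in double-positive and 30.8%, 21.1% and 18.7% in RFP-only cells, so the share was higher in RFP-only cells of each litter and DP1 lay within the RFP-only range. Without GFP5, 0 rose and 3 fell, and with 1 of the 6 compared libraries left out 0 rose and 0 to 2 fell. The threshold was missed for Hbb-y and Hba-x without DP1, DP2, DP5, RFP1 or RFP2, with adjusted p of 0.0553 to 0.0796.

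Of 16 Schwann cell and neuron genes 1 rose and 3 fell, beside 1.85% and 1.27% of all tested genes, and 12 missed the threshold (median -1.43). Ngfr, the neurotrophin receptor gene, had 49.96, 143 and 121 normalized counts in the double-positive libraries and 535, 616 and 638 in the RFP-only libraries (log2 fold change -2.63 ± 0.47, adjusted p = 0.0203), and the Schwann cell precursor genes Erbb3 (-3.09 ± 0.64, adjusted p = 0.0376) and Cdh19 (-4.23 ± 0.67, adjusted p = 0.0127) fell with it. S100b, a calcium-binding protein gene that chondrocytes also express, rose, with 360.3, 654 and 1231 normalized counts in the double-positive libraries and 40.4, 121 and 104 in the RFP-only libraries (log2 fold change 3.04 ± 0.31, adjusted p = 0.00139). Sox10, the defining transcription factor gene of glia, did not pass (1.49 ± 0.35, adjusted p = 0.0624), though it passed as higher without GFP5 (adjusted p = 0.00611). Without GFP5, 3 rose and 6 fell, and with 1 of the 6 compared libraries left out 1 rose and 0 to 2 fell; with no litter block 2 rose and 3 fell. The call of S100b held with any 1 library left out. Calls ended for Ngfr without DP1, DP2, RFP1 or RFP5, Erbb3 without DP1, DP2, DP5, RFP2, RFP5 or GFP1, and Cdh19 without DP1, RFP1 or RFP5, with adjusted p of 0.0543 to 0.159.

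Among 15 epidermal genes Krt17 alone passed (median 0.88), where 3.13% of all tested genes passed. This keratin gene had 721, 429 and 653 normalized counts in the double-positive libraries and 21.3, 40.8 and 57.4 in the RFP-only libraries (log2 fold change 3.95 ± 0.49, adjusted p = 0.00341), and 35.5, 52.6 and 29.8 in GFP-only cells, so all 3 double-positive libraries lay above the other 6. The basal keratin genes Krt5 (116, 203 and 216 normalized counts in the double-positive libraries and 25.1, 126 and 44.8 in the RFP-only libraries; 1.70 ± 0.43, adjusted p = 0.0797), Krt14 (1.11 ± 0.35) and Krt15 (0.76 ± 0.43) did not pass, and Krt5 passed without GFP5 (adjusted p = 0.0342). Krt18 (0.54 ± 0.47), Krt10 (-0.20 ± 0.42) and the cadherin gene Cdh3 (-0.51 ± 0.52) did not pass either, though Cdh3 passed as lower without GFP5 (adjusted p = 0.0464). Of the 15 genes, 4 lay above and 1 below RFP-only cells without overlap, beside 11.1% and 12.7% of all tested genes. Among the 4 were Cdh1 (3.62 ± 1.08, adjusted p = 0.128) and Dsg2 (3.74 ± 1.06, adjusted p = 0.111), which did not pass. The list summed to 4908, 4494 and 4990.1 in double-positive and to 4396, 3996 and 3683 in RFP-only cells. Without GFP5, 3 rose and 1 fell, and with 1 of the 6 compared libraries left out 1 rose and 0 fell. The call of Krt17 held with any 1 library left out.

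Pericyte and smooth muscle genes did not share a direction. Of 12 tested 2 rose and 1 fell, beside 1.85% and 1.27% of all tested genes, and 9 missed the threshold (median -1.22). Without overlap, 4 lay above and 7 below RFP-only cells, beside 11.1% and 12.7% of all tested genes. Acta2, the smooth muscle actin gene that early skeletal muscle also expresses, had 195, 792 and 720.0 normalized counts in the double-positive libraries and 4264, 7532 and 6896 in the RFP-only libraries (log2 fold change -3.65 ± 0.37, adjusted p = 0.00131). Ndufa4l2, a hypoxia-induced mitochondrial gene, had 962, 1385 and 1897 normalized counts in the double-positive libraries and 35.04, 114 and 133 in the RFP-only libraries (log2 fold change 4.05 ± 0.33, adjusted p = 0.000376), and Cspg4, a proteoglycan gene that chondrocytes express as well, had 4545, 6209.6 and 11409 normalized counts in the double-positive libraries and 782, 1494 and 1129.8 in the RFP-only libraries (log2 fold change 2.64 ± 0.28, adjusted p = 0.00156). All 3 were separated between the populations. The defining marker Rgs5 had 429, 677 and 437 normalized counts in the double-positive libraries and 261, 465 and 496 in the RFP-only libraries and did not pass (0.36 ± 0.39), and Pdgfrb had 854, 1415 and 1653 normalized counts in the double-positive libraries and 3353, 3269 and 4143 in the RFP-only libraries, not passing with all libraries (-1.50 ± 0.55, adjusted p = 0.226) and passing without GFP5 (adjusted p = 0.00139). Without GFP5, 4 rose and 6 fell, and with 1 of the 6 compared libraries left out 2 rose and 1 to 2 fell. The calls of Acta2, Ndufa4l2 and Cspg4 held with any 1 library left out.

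**Figure D4:**
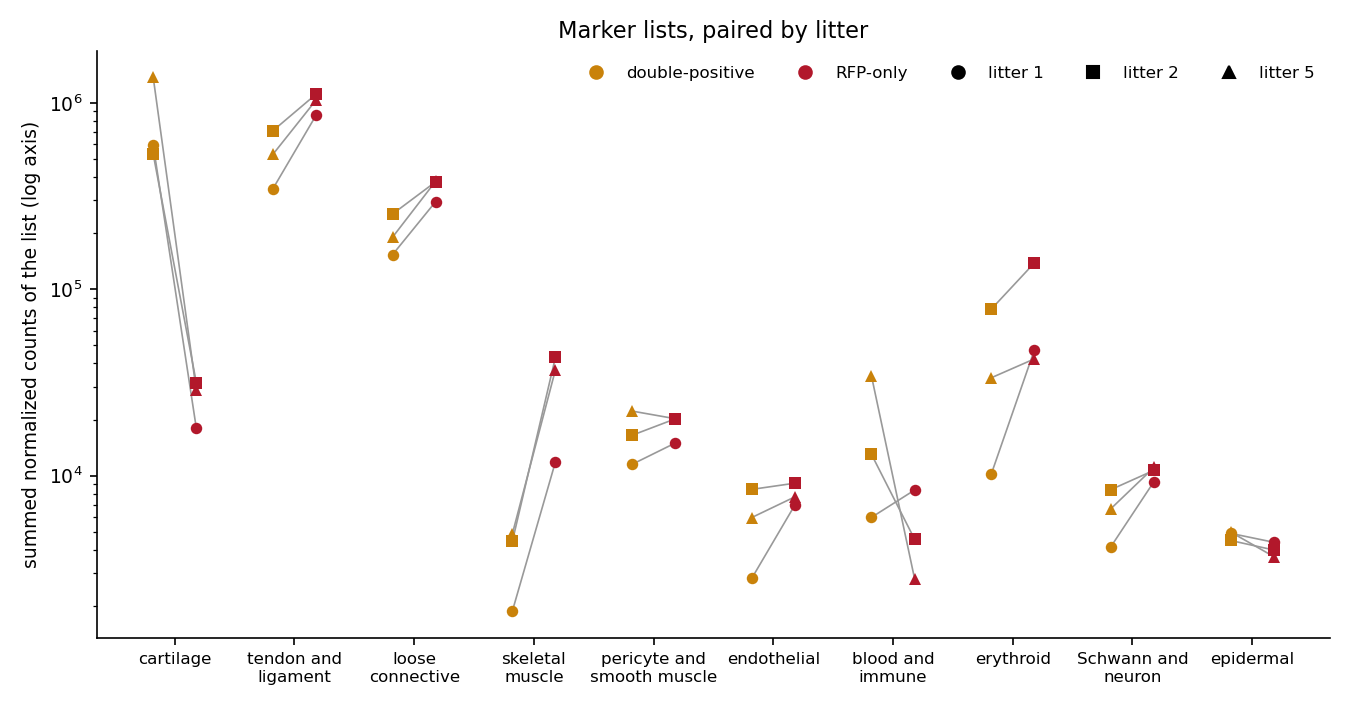
Summed normalized counts of each marker list on a log axis (y) for double-positive (orange) and RFP-only (red) cells, with lines joining the libraries of 1 litter and shapes giving the litter. The cartilage sum falls from double-positive to RFP-only cells in each litter and the muscle sum rises in each litter. The immune sum rises in litter 1 and falls in litters 2 and 5.

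Transcription factors of limb patterning were called in both directions. Of 41 tested 3 rose and 5 fell, beside 1.85% and 1.27% of all tested genes, and 33 missed the threshold (median -0.41). Pax9, a paired-box gene of early skeletal condensations, had 1342, 585 and 605 normalized counts in the double-positive libraries and 116, 77.01 and 77 in the RFP-only libraries (log2 fold change 3.13 ± 0.60, adjusted p = 0.0291), and 12.4, 22.04 and 63.8 in GFP-only cells. Msx1, a homeobox gene of limb mesenchyme, had 639, 275 and 817 normalized counts in the double-positive libraries and 219, 77.01 and 210.0 in the RFP-only libraries (log2 fold change 1.77 ± 0.28, adjusted p = 0.013), and the chondrogenic homeobox gene Nkx3-2 had a log2 fold change of 1.78 ± 0.39, adjusted p = 0.0466. Irx5, an Iroquois homeobox gene, had 367, 227 and 344 normalized counts in the double-positive libraries and 942, 1521 and 1383 in the RFP-only libraries (log2 fold change -2.03 ± 0.29, adjusted p = 0.00721). None of these genes overlapped between the populations. Irx3 (-1.50 ± 0.32, adjusted p = 0.042), the proximal limb gene Meis1 (-1.22 ± 0.22, adjusted p = 0.021) and the mesenchymal gene Prrx2 (-1.22 ± 0.25, adjusted p = 0.0358) fell as well. Without GFP5, 6 rose and 11 fell, and with 1 of the 6 compared libraries left out 0 to 2 rose and 1 to 2 fell; with no litter block 3 rose and 3 fell. The call of Irx5 held with any 1 library left out. Calls lapsed for Pax9 and Meis1 without any 1 of the 6 compared libraries, Msx1 without DP1, DP2, DP5, RFP1 or RFP2, Nkx3-2 without any 1 of the 6 compared libraries or GFP1 or GFP2, and Irx3 and Prrx2 without any 1 of the 6 compared libraries or GFP1, with adjusted p of 0.0582 to 0.218. Leaving out the litter block, Msx1 had an adjusted p of 0.11 and Irx3 had an adjusted p of 0.051.

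Hox cluster genes, which record position along the limb, gave 1 call, where 3.13% of all tested genes passed. Of 32 tested 1 rose, 0 fell and 31 missed the threshold (median -0.32), the 1 being Hoxd9, with 1152, 703 and 727 normalized counts in the double-positive libraries and 318, 291 and 209 in the RFP-only libraries (log2 fold change 1.64 ± 0.33, adjusted p = 0.0359). The most abundant members Hoxa10 (0.32 ± 0.18, adjusted p = 0.522), Hoxa9 (0.45 ± 0.21) and Hoxc10 (-0.01 ± 0.20) did not pass. Of the 32 Hox genes, 4 lay above and 13 below RFP-only cells without overlap, beside 11.1% and 12.7% of all tested genes. Their log2 fold changes ran from -3.89 to 1.86. Of 28 CREB, ATF and AP-1 family genes 1 rose, 0 fell and 27 missed the threshold (median -0.22), again beside 3.13% of all tested genes. Jdp2, which encodes an AP-1 repressor, rose, with 4216, 3494 and 4745 normalized counts in the double-positive libraries and 1252, 1452 and 1838 in the RFP-only libraries (log2 fold change 1.46 ± 0.29, adjusted p = 0.031). The AP-1 genes Fos (-0.36 ± 0.34, adjusted p = 0.788), Jun (-0.28 ± 0.21, adjusted p = 0.704) and Jund (-0.54 ± 0.20, adjusted p = 0.244) did not pass, and Jund passed as lower without GFP5 (adjusted p = 0.0463). For the Hox list without GFP5, 3 rose and 4 fell, and with 1 of the 6 compared libraries left out 0 to 1 rose and 0 fell; with no litter block 1 rose and 1 fell. For the CREB, ATF and AP-1 list without GFP5, 1 rose and 2 fell, and with 1 of the 6 compared libraries left out 0 rose and 0 fell. Calls did not hold for Hoxd9 without DP1, DP2, DP5, RFP1, RFP5 or GFP1, and Jdp2 without any 1 of the 6 compared libraries, with adjusted p of 0.05004 to 0.194.

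Axon guidance genes were called in both directions, and the adhesion genes that passed were lower (3.13% of all tested genes passed). Of 57 axon guidance genes 2 rose, 1 fell and 54 missed the threshold (median -0.34). Values of 6 lay above and of 19 below RFP-only cells without overlap, beside 11.1% and 12.7% of all tested genes. The semaphorin gene Sema3e had 454, 282 and 622 normalized counts in the double-positive libraries and 61.7, 73.6 and 113 in the RFP-only libraries (log2 fold change 2.41 ± 0.46, adjusted p = 0.0282), the netrin receptor gene Unc5c had a log2 fold change of 1.61 ± 0.31, adjusted p = 0.027, and Nrp1, a receptor gene for semaphorins and VEGF, fell, with 1288, 3044 and 1763 normalized counts in the double-positive libraries and 3736, 6188 and 6394 in the RFP-only libraries (log2 fold change -1.47 ± 0.28, adjusted p = 0.0286). Of 27 integrin and cadherin genes 0 rose, 3 fell and 24 missed the threshold (median -0.38). Besides Itga7 these were Vcam1, an adhesion ligand gene, with 4618, 5052 and 4482 normalized counts in the double-positive libraries and 12819, 13878 and 14508 in the RFP-only libraries (log2 fold change -1.54 ± 0.32, adjusted p = 0.0399), and Itga4, which encodes part of its receptor (-2.14 ± 0.36, adjusted p = 0.0166). Ligand and receptor were thus both lower in double-positive cells of every litter. For the guidance list without GFP5, 5 rose and 13 fell, and with 1 of the 6 compared libraries left out 0 to 1 rose and 0 fell. For the adhesion list without GFP5, 1 rose and 8 fell, and with 1 of the 6 compared libraries left out 0 rose and 0 to 1 fell. Significance was lost for Sema3e without DP1, DP2, DP5, RFP1 or RFP2, Unc5c without DP1, DP2, DP5, RFP2 or RFP5, Nrp1 and Itga4 without any 1 of the 6 compared libraries, and Vcam1 without any 1 of the 6 compared libraries or GFP1, with adjusted p of 0.0539 to 0.208.

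Of 34 matrix protease and inhibitor genes 0 rose, 1 fell and 33 missed the threshold (median -0.34), where 3.13% of all tested genes passed. Values of 2 lay above and of 9 below RFP-only cells without overlap, beside 11.1% and 12.7% of all tested genes. The 1 that fell was Adamts17, a secreted metalloprotease gene, with 435, 807 and 400.0 normalized counts in the double-positive libraries and 2125, 1712 and 1887 in the RFP-only libraries (log2 fold change -1.87 ± 0.28, adjusted p = 0.00912). The abundant genes Mmp2 (0.07 ± 0.27, adjusted p = 0.978), Mmp14 (-0.05 ± 0.25, adjusted p = 0.986) and Timp2 (-0.19 ± 0.18, adjusted p = 0.784) did not pass, and Mmp2 had 18398, 19600.3 and 24103 normalized counts in the double-positive libraries and 15098, 20235 and 24460.4 in the RFP-only libraries, overlapping between the populations. Without GFP5, 2 rose and 7 fell, and with 1 of the 6 compared libraries left out 0 rose and 0 to 1 fell; with no litter block 0 rose and 2 fell. In one-library-out fits, calls were lost for Adamts17 without DP1, DP5, RFP1 or RFP5, with adjusted p of 0.0505 to 0.0818.

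Genes of growth and handling gave no call with all libraries (limma, unadjusted p under 0.05 in 14.3% of all tested genes). None of 32 cell cycle genes passed (median 0.21, range -0.33 to 0.79), with the cyclin genes Ccnd2 at 0.31 ± 0.28 and Ccnd3 at -0.33 ± 0.19 and the inhibitor gene Cdkn1c at -0.28 ± 0.23. None of 19 dissociation stress genes passed (median -0.36), with the immediate early gene Egr1 at 11522, 14871 and 37445 normalized counts in the double-positive libraries and 17746, 23241 and 23920.0 in the RFP-only libraries and the heat shock gene Hspa1a at 31054, 10930.2 and 137037 normalized counts in the double-positive libraries and 49829.6, 37164 and 97396 in the RFP-only libraries. Hspa1a was highest in litter 5 of both populations, and the values overlapped (-0.65 ± 0.36, and -0.79 ± 0.40 for its near copy Hspa1b). None of 16 mitochondrially encoded genes (median -0.18) and none of 83 ribosomal protein genes (median 0.04) passed. For the cell cycle list without GFP5, 2 rose and 0 fell, and with 1 of the 6 compared libraries left out 0 rose and 0 fell. For the stress list without GFP5, 0 rose and 5 fell, and with 1 of the 6 compared libraries left out 0 rose and 0 to 1 fell.

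**Figure D5:**
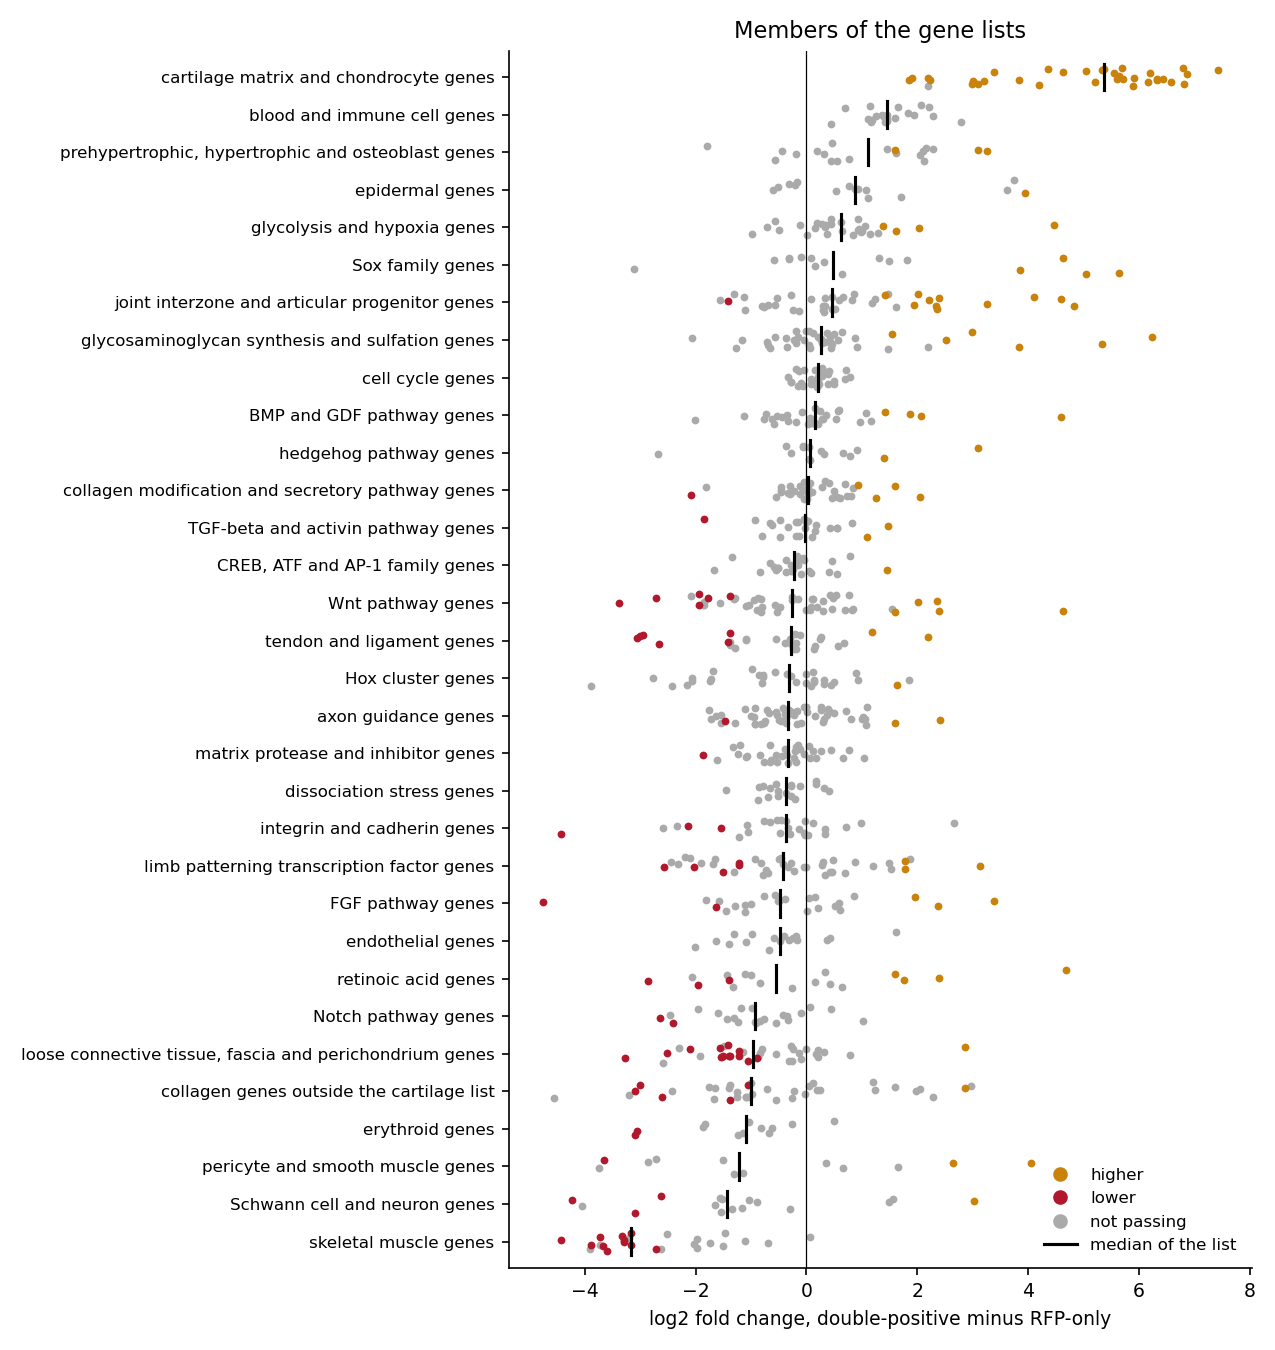
Log2 fold change of double-positive minus RFP-only cells (x axis) for the members of each gene list (y axis), ordered by the list's median (black bar). Orange points passed as higher, red points as lower and grey points did not pass. The cartilage list lies wholly right of zero with a median of 5.37, and the skeletal muscle list lies furthest left with a median of -3.16.

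Beside GFP-only cells, the genes of this contrast held different places. Of the 328 genes that rose, 108 had a double-positive mean above the GFP-only mean and 220 did not. Cartilage matrix genes were mostly among the latter, with a summed list of 592175, 529803 and 1367160.0 normalized counts in double-positive, 17970.1, 31512 and 28641 in RFP-only and 2187460.0, 2909310.0 and 2691140.0 in GFP-only cells. Of the 226 genes that fell, 150 had a double-positive mean above the GFP-only mean and 76 did not. Dcn illustrates the former, with 896, 3380.2 and 4773 in GFP-only cells, and Wnt5a the latter, with 5242, 6160.5 and 3041. These comparisons share the double-positive libraries, so the values are set side by side and no test was made across them.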

How the data were processed

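Nextera XT libraries were made from polyadenylated RNA, per the labels' protocols. FastQC, STAR, Salmon, DESeq2 and mm10 are named in the submitters' processing notes, without versions or roles. Gene models, strand and counting rule are not given in the sources used here. Reads of overlapping, antisense or near-identical genes therefore cannot be told apart. The authors deposited a signal per gene, in normalized counts, for 54532 genes in 9 libraries. Every library's values were whole multiples of 1 read's value (100% within 0.001), which gave recovered reads. Symbols and 1-based coordinates came from GENCODE M21 on GRCm38 (54495 identifiers matched, 37 did not).

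Genes with a mean of at least 10 in the 6 compared libraries were tested, two-sided, with limma 3.58.1 (R 4.3.3). The model held population and litter (a fixed block) for all 9 libraries, on log2(normalized count + 1) with a trended variance, which understates fold changes of low genes. Genes passed at a Benjamini-Hochberg adjusted p under 0.05. The procedure was tested on simulated data in which no library stood apart as GFP5 did. The labels give each litter its own isolation date, which pairs the libraries. Deviations from population means correlated at 0.0697, 0.155 and 0.115 within litters and -0.116 to 0.0039 between litters. The deviations of a gene cancel within each population, so positive values within litters push those between litters toward negative values. The contrast of these values is therefore no separate evidence for the pairing, which rests on the labels. The consensus correlation within litters, a value shared by all genes, was small at 0.01648. Replicates differed beyond counting noise (chi-square over degrees of freedom 46.6 or more).

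The members and lists were chosen with earlier results of these data known. The text names 7 fixed genes, the 12 largest changes in each direction that passed (mean of at least 100 in the higher population, 1 sign in all litters, no overlap, no predicted gene or pseudogene), up to 4 passing members of each list per direction, and up to 3 abundant or defining markers. Slc26a2, Dkk3, Col14a1 and Pthlh were added after their values were seen. Some list members that the rule names are not reported here. edgeR 4.0.16 on the recovered reads, with the block, called 420 genes, and DESeq2 1.42.0 called 1524. Other alternatives changed the block, libraries, pseudocount, filter, scaling, weights and prior.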

Additional observations from a re-analysis of the deposited data

How the results depend on the processing

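With litter as a fixed replicate block 554 genes passed (328 higher, 226 lower). No replicate block gave 508, of which 443 were shared, and litter as a random block gave 536. Using the 6 compared libraries alone gave 1755 (746 higher, 1009 lower) with the block and 1072 (497 higher, 575 lower) without it, and edgeR on these 6, added after seeing the data, gave 1280 (579 and 701). Array weights gave 2538 (1139 and 1399), quantile normalization 846 (387 lower), no mean-variance trend 329 (201 and 128), DESeq2 on recovered reads 1524 (728 and 796) and edgeR without the block 134 lower. Leaving out each library in turn gave 155 to 1988 calls, 119 to 910 higher and 36 to 1078 lower, the fewest without DP1 and the most without GFP5. Leaving out a litter gave 72 (64 higher, 8 lower) without litter 1, 199 (139 and 60) without litter 2 and 731 (398 and 333) without litter 5. GFP5 had an array weight of 0.0770 where the highest was 3.39, and the highest counts came with settings that weighted it down (2538) or left it out alone (1988). Of 131 named genes that passed, 30 were called in every alternative, and no named gene that passed changed sign in any. Libraries of 1 litter share an isolation date, 3 litters limit the precision, and intervals of reads cover counting error only.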
